A study of Mus musculus with 8 samples.

Results

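The genes described here encode the receptor chains of the interleukin 2, 4, 7, 9, 15 and 21 family: Il2ra, Il2rb, Il2rg, Il4ra, Il7r, Il9r, Il15ra and Il21r. They were taken by gene name from the deposited table, and all 8 were found among its 19330 genes. All 8 also passed the filter on low counts that left 16434 genes for testing.

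RNA-seq was carried out on mouse regulatory T cells (Tregs) made in culture. Naive CD4+ T cells from the spleen of B6 mice were polarized for 3 days without oxPAPC (control, 4 libraries) or with it (oxPAPC, 4 libraries). OxPAPC is a mixture of phospholipids produced by oxidizing PAPC, a phosphatidylcholine that carries arachidonic acid. All libraries share the B6 genotype and the Treg polarization, and the one comparison asks what oxPAPC changed. Nothing in the labels ties a replicate to its own mouse or culture, so p-values cover only the spread among these 8 libraries, which may be technical.

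The receptors of this family pair a cytokine-specific chain with Il2rg, the common gamma chain, which signals through the kinase JAK3. Il2ra (CD25) captures interleukin 2 with high affinity and is a hallmark of Tregs, and Il2rb carries signals of interleukins 2 and 15. Il7r (CD127) keeps naive and memory T cells alive and is typically low on Tregs, while activated T cells lower it. The main messengers downstream are STAT5 for interleukins 2, 7, 9 and 15, STAT6 for interleukin 4 and STAT3 for interleukin 21.

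Libraries held 14017583 to 21619731 counts, and the 8 receptor genes together held 17383 to 51607 of them. Treg markers were compared between the groups, which does not settle the identity of the cells. Foxp3, the Treg lineage factor, averaged 154 ± 34.1 CPM without and 145 ± 52.1 CPM with oxPAPC (SD, n = 4 each). CPM stands for counts per 1000000 after TMM scaling of the libraries. The 6 Treg markers summed to 906 to 1038.5 CPM in control and 851 to 1063.5 CPM in oxPAPC libraries. For 1 of the 6 the groups did not overlap, as for 19.4% of all genes tested. The noncoding gene Gm26917 held between 8.59% and 29.1% of a library's counts. It lay under 10% in control replicate 3 and oxPAPC replicates 3 and 4, and these 3 libraries are set apart beside the results below.

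Il7r was lower, and Il9r and Il2rg were higher, in oxPAPC than in control libraries. Il7r fell by 1.78 on the log2 scale, Il9r rose by 1.15 and Il2rg by 0.64. Il2ra, the member with the highest mean level per length of exon, had a log2 fold change of 0.60 that did not pass. Those of Il2rb, Il15ra, Il21r and Il4ra did not pass either. In the quasi-likelihood test of edgeR, adjusted over all genes by Benjamini-Hochberg, 3 of the 8 members were called, 2 higher and 1 lower, at an adjusted p threshold of 0.05. Of all 16434 genes tested, 13.3% were called, 6.75% higher (1110 genes) and 6.52% lower (1072 genes); scaling by library size gave 1154 higher and 458 lower. The median log2 fold change was 0.48 over the 8 members and -0.01 over all genes. In bulk RNA, fewer cells of a type and less RNA per cell cannot be told apart.

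**Figure D1:**
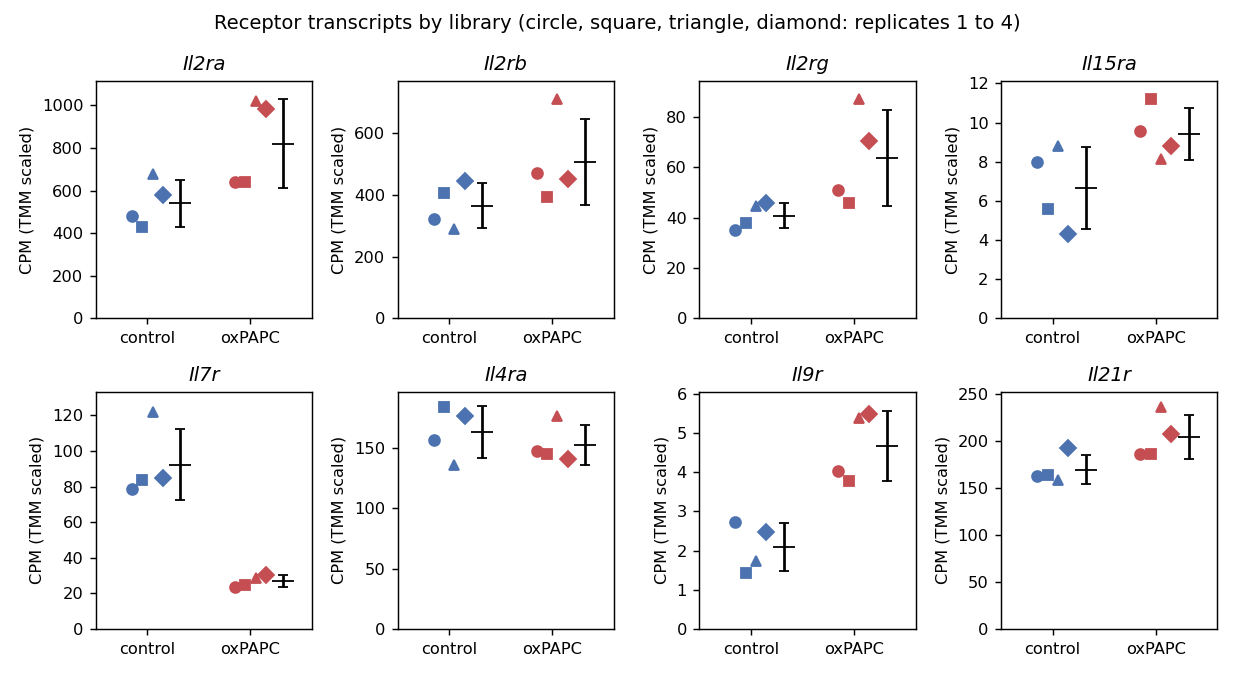
CPM of each receptor gene (vertical axes, from 0) in the 4 control (blue) and 4 oxPAPC (red) libraries, with symbols for replicates 1 to 4 and black bars for mean ± SD. Il7r has every oxPAPC library at or below 30.3 CPM and every control library at or above 78.5 CPM, while Il4ra overlaps throughout.

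Short stretches of the promoters of the called members and of Il2ra are shown, with matches to short elements that families of transcription factors bind. Whether regulators of these receptors act through these matches was not tested. Promoter windows of 250 bases before to 50 after the start came from RefSeq (build GRCm38.p6), in which 7 of the 8 members were matched, with 8 windows; Il2rb was not. Both strands were searched for TTCNNNGAA (STAT), GGGA and CC with any 4 bases between (NF-kB), TGTGGTT (Runx), CCGGAAG (ETS), GTAAACA (FoxO) and GAAA and GAAA with any 2 bases between (IRF). Each line gives 30 bases, 5′ to 3′ on the strand of the gene, with the match in capitals, and no printed match overlaps another.
Il7r (STAT match, chr15:9529999-9530028, minus strand): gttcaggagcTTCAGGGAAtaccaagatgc
Il2ra (NF-kB match, chr2:11642581-11642610, plus strand): tgccgcggcaGGGAATCCCCctttccttgt
Il9r (Runx match, chr11:32200344-32200373, minus strand): ctgtgatgtctTGTGGTTtttgatgtgggt
Il2rg (ETS match, chrX:101268254-101268283, minus strand): ggttctttccaCCGGAAGctacgacaaaag

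Among all 32851 promoter windows of this length, 8.3% held the STAT element, 20.7% the NF-kB element, 5.3% the Runx element and 8.9% the ETS element. Il7r also had a Runx match just after its RefSeq start, Il15ra an ETS match and Il21r an NF-kB match. The window holding the Il7r matches (positions 9529827 to 9530126) lies inside Il7r as annotated in GENCODE M21 (9505788 to 9530176, minus strand). By that annotation these matches are therefore not upstream of the gene. The FoxO element was found in the window of Il21r and in 3.6% of all windows, and the IRF element in no member and in 3.4% of all windows. These are matches of letters and were not tested for binding.

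Il7r, the interleukin 7 receptor chain, is on chromosome 15 between positions 9505788 and 9530176 of GRCm38, on the minus strand. It had 78.5, 83.7, 122 and 84.8 CPM in control replicates 1 to 4 and 23.4, 24.7, 28.7 and 30.3 CPM in oxPAPC replicates 1 to 4. The groups lie far apart, with control replicate 3 above the rest of its group. The log2 fold change was -1.78 ± 0.17 (SE, adjusted p by edgeR = 2.35e-05), a 3.44-fold lower level. Il7r took 5.55% to 8.49% of the counts of the 8 members in control and 1.26% to 1.70% in oxPAPC libraries.

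Il9r, the interleukin 9 receptor, is on chromosome 11 between positions 32187541 and 32200279 of GRCm38. It was the least abundant member, with 19 to 122 counts in a library. It had 2.73, 1.43, 1.74 and 2.48 CPM in the control replicates and 4.03, 3.77, 5.38 and 5.48 CPM in the oxPAPC replicates, without overlap. The rise was 2.23-fold, with a log2 fold change of 1.15 ± 0.26 (SE, adjusted p by edgeR = 0.0101).

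Il2rg, the chain shared by all receptors of the family, is on chromosome X between positions 101264378 and 101268255 of GRCm38. It had 35.3, 37.8, 44.6 and 45.8 CPM in the control replicates and 51.1, 45.9, 87.3 and 70.7 CPM in the oxPAPC replicates. The groups only just do not overlap, since oxPAPC replicate 2 lies at the level of control replicate 4. The log2 fold change was 0.64 ± 0.19 (SE, adjusted p by edgeR = 0.0399). The call was lost without control replicate 1, 2 or 4 (edgeR adjusted p of 0.113, 0.104 and 0.0527) or oxPAPC replicate 3 or 4 (0.0939 and 0.0980), with limma-voom (0.0567) and when the Gm26917 share was a covariate (0.0765). Of the 2387 exonic bases of Il2rg, 728 (30.5%) are also exonic in Gm20489, a protein-coding gene annotated on the same strand, which has no values here. The sources used here do not give how reads in shared bases were counted, so the level of Il2rg is uncertain.

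Il2ra, the high-affinity chain, is on chromosome 2 between positions 11642807 and 11693193 of GRCm38. It had 479, 428, 678 and 577 CPM in the control replicates and 638, 640, 1023 and 983 CPM in the oxPAPC replicates. The groups overlap only through control replicate 3, which lies above oxPAPC replicates 1 and 2. The log2 fold change was 0.60 ± 0.22 (SE, adjusted p by edgeR = 0.0902). With the Gm26917 share as a covariate it was 0.41 (edgeR adjusted p = 0.102). Among the alternatives, Il2ra passed only with DESeq2 (adjusted p = 0.0253) and with limma-voom and quality weights (adjusted p = 0.0498). It also passed in the authors' deposited table (adjusted p = 0.0269), which was made with DESeq2 as well. DESeq2 thus called 4 of the 8 members, against 16.6% of all genes it tested, and the authors' deposited table also 4 of 8, against 14.4% of the genes with an adjusted p.

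Il2rb, which signals for interleukins 2 and 15, is on chromosome 15 between positions 78479256 and 78495271 of GRCm38. It had 321, 407, 288 and 446 CPM in the control replicates and 470, 393, 712 and 453 CPM in the oxPAPC replicates. The oxPAPC mean rests largely on replicate 3, and the log2 fold change was 0.47 ± 0.22 (SE, adjusted p by edgeR = 0.173), and 0.26 without that library. Il15ra, the interleukin 15 capture chain, lies next to Il2ra on chromosome 2, between positions 11705290 and 11734317, with 12096 bases and no protein-coding gene between them. It had 7.98, 5.58, 8.82 and 4.28 CPM in the control and 9.55, 11.2, 8.12 and 8.82 CPM in the oxPAPC replicates, with overlapping groups and a log2 fold change of 0.49 ± 0.23 (SE, adjusted p by edgeR = 0.178).

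Il21r and Il4ra, the chains for interleukin 21 and for interleukins 4 and 13, are also neighbours, 23954 bases apart on chromosome 7 (GRCm38 positions 125603429 to 125633570 and 125552120 to 125579474). Il21r had 163, 164, 158 and 192 CPM in the control and 186, 186, 236 and 207 CPM in the oxPAPC replicates, with a log2 fold change of 0.26 ± 0.15 (SE, adjusted p by edgeR = 0.272). Il4ra had 157, 184, 136 and 177 CPM in the control and 148, 145, 177 and 141 CPM in the oxPAPC replicates. Its groups share most of their range, and its log2 fold change of -0.10 ± 0.15 (SE, adjusted p by edgeR = 0.727) turned to 0.05 with scaling by library size alone, under which the median of all genes was 0.12. Of the exonic bases of Il4ra, 9.51% are also exonic in the antisense gene Gm44876, which had only 3 to 21 counts in a library.

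Levels of different genes were compared per length, as CPM per kb of annotated exon. In control libraries Il2ra had 94.7 ± 19.3 and Il2rb 85.3 ± 17.2 CPM per kb (SD, n = 4 each), with overlapping ranges. Il21r followed at 51.0 ± 4.61, Il4ra at 27.2 ± 3.54, Il7r at 19.8 ± 4.30 and Il2rg at 17.1 ± 2.15 CPM per kb. Il4ra and Il7r overlapped in range, as did Il7r and Il2rg. Il15ra at 1.5 ± 0.473 and Il9r at 0.424 ± 0.123 CPM per kb were far below the others and apart from each other.

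In oxPAPC libraries Il2rg stood the fourth, Il4ra the fifth and Il7r the sixth, against the sixth, the fourth and the fifth in control libraries. Il7r lay at 5.74 ± 0.695 CPM per kb, below Il4ra at 25.4 ± 2.78 and Il2rg without overlap. Il2ra had 144 ± 36.9, Il2rb 118 ± 32.8 and Il21r 61.2 ± 7.16 CPM per kb, and the first 2 overlapped. Il2rg had 26.7 ± 7.95 CPM per kb and overlapped Il4ra, so the order of these 2 is not beyond their spread. Dividing all its CPM by only the exonic bases it does not share, Il2rg had 24.6 ± 3.09 in control and 38.4 ± 11.4 CPM per kb in oxPAPC libraries. These values hold only if reads in shared bases were left out of the counts, which is not known. With that length the control mean of Il2rg would lie above that of Il7r (19.8). Il15ra and Il9r were again lowest, at 2.12 ± 0.294 and 0.943 ± 0.180 CPM per kb.

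**Figure D2:**
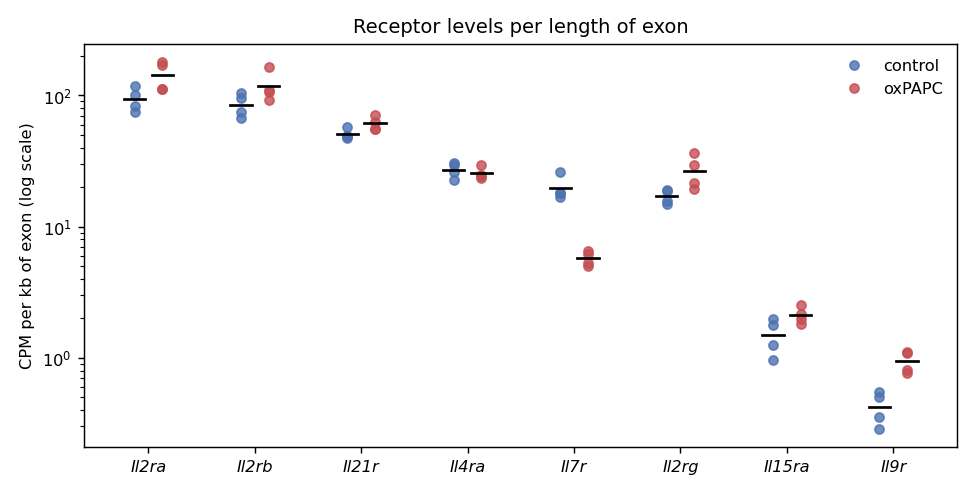
CPM per kb of exon (vertical axis, log scale) of the 8 receptor genes, ordered by their control mean, with dots for the 4 libraries of each group (blue control, red oxPAPC) and black lines for means. Il7r is near Il2rg in control libraries (19.8 and 17.1) and below it in oxPAPC libraries (5.74 and 26.7).

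Ratios of counts within a library do not depend on how libraries are scaled. Each library had 6.11, 5.12, 5.55 and 6.80 counts of Il2ra per count of Il7r in the control replicates and 27.2, 26.0, 35.7 and 32.5 in the oxPAPC replicates. The mean of this ratio was 5.14 times higher in oxPAPC libraries. Il7r per count of Il2rg was 2.26 ± 0.364 in control and 0.438 ± 0.0861 in oxPAPC libraries (SD, n = 4 each), also without overlap.

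Il2ra per count of Il2rg, in contrast, was 13.2 ± 1.63 and 13.0 ± 1.10 (SD, n = 4 each), with overlapping groups. Il2ra and Il2rg thus had nearly the same profile over the libraries, although only Il2rg was called. Il2ra per count of Il2rb was 1.55 ± 0.567 and 1.65 ± 0.365. Il21r per count of Il4ra, a ratio chosen after its values were seen, was 1.04 ± 0.113 in control and 1.33 ± 0.0953 in oxPAPC libraries (SD, n = 4 each), without overlap. As a description, 3 of the 8 members had CPM values that did not overlap between groups, against 19.4% of all genes tested. Of 26 tested receptors of other cytokine families, 12 did not overlap.

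**Figure D3:**
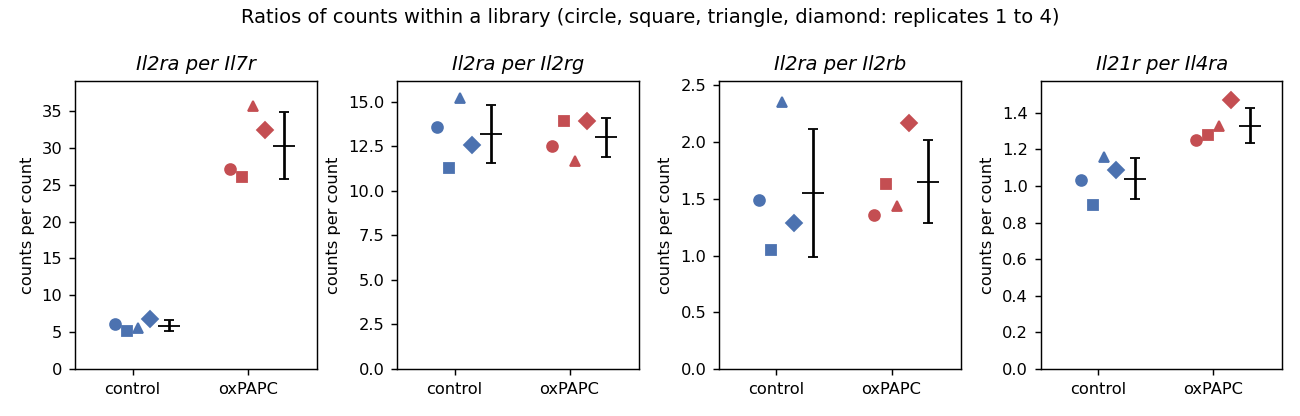
Counts of the first gene per count of the second (vertical axes, from 0) in each control (blue) and oxPAPC (red) library, with symbols for replicates 1 to 4 and black bars for mean ± SD. Il2ra per Il7r is 5.12 to 6.80 in control and 26.0 to 35.7 in oxPAPC libraries, while Il2ra per Il2rg overlaps.

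The share of Gm26917 moved with several members within the groups, and its part in the results was not tested beyond the values here. Il2ra was highest, within each group, in the libraries under 10% Gm26917. In these 3 libraries Il2ra had 678 CPM in the control library and a mean of 1003 CPM in the 2 oxPAPC libraries. In the other 5 it had means of 495 CPM (3 control) and 639 CPM (2 oxPAPC), and within neither set did the groups overlap.

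Il7r was 4.14-fold lower with oxPAPC in the libraries under 10% and 3.42-fold lower in the others, so the direction was the same in both sets. Il2rg was 1.77-fold and 1.22-fold higher, and Il9r 3.13-fold and 1.76-fold higher. Il2rb was 2.02-fold higher under 10% and 1.10-fold higher, with overlap, in the others. Il15ra went from 8.82 to 8.47 CPM under 10% and from 5.95 to 10.4 CPM in the others, and Il4ra from 136 to 159 and from 173 to 146 CPM. The set under 10% holds 1 control library, so no test was run within it.

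**Figure D4:**
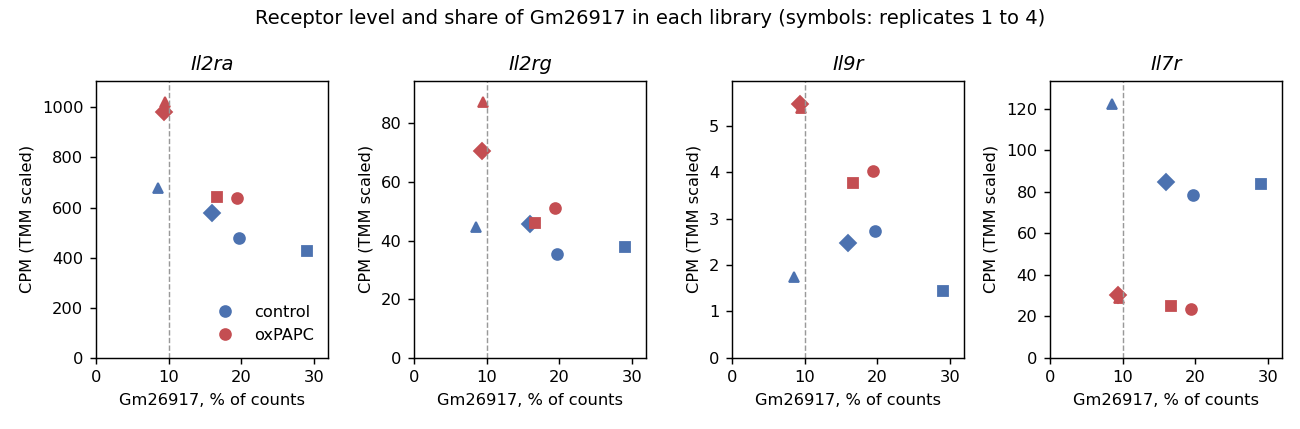
CPM of Il2ra, Il2rg, Il9r and Il7r (vertical axes, from 0) against the share of counts taken by Gm26917 (horizontal axes, percent) in each control (blue) and oxPAPC (red) library, with symbols for replicates 1 to 4 and a dashed line at 10%. Control replicate 3 and oxPAPC replicates 3 and 4 lie left of the line and hold the highest Il2ra value of each group.

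Of the ligands of these receptors, 3 could be tested and all 3 rose, against 6.75% of all genes tested. Il4 and Il13 reached at most 0.777 and 0.874 CPM in control libraries. Both needed their oxPAPC libraries to pass the filter on low counts, which favors a rise, so this count is a description only. Il9, the ligand of Il9r, went from 2.31 ± 1.32 to 12 ± 3.04 CPM (SD, n = 4 each), a rise of 2.36 ± 0.35 on the log2 scale (SE, adjusted p by edgeR = 0.000664), so ligand and receptor rose together. Il13, which signals through Il4ra paired with another chain, had a log2 fold change of 4.83 (edgeR adjusted p = 4.39e-06). Il4 had 28 counts in all over the control and 129 over the oxPAPC libraries, with a log2 fold change of 2.19 (edgeR adjusted p = 0.0248). That call was lost without control replicate 1 or 2 (edgeR adjusted p of 0.0612 and 0.0586), without oxPAPC replicate 4 (0.0831) and when replicate numbers entered as a block (0.108). The log2 fold change of Il4 was 2.93 without control replicate 3, 2.91 by limma-voom and 3.28 with quality weights.

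Il21, the ligand of Il21r, was under the filter, with 1 count over the 4 control libraries and 7, 12, 9 and 10 counts in the oxPAPC replicates. Il2, Il7, Il15 and Tslp were not analysed here. Crlf2, which pairs with Il7r to bind the cytokine TSLP, had 49.8 ± 18.3 and 51.9 ± 14.6 CPM (SD, n = 4 each, edgeR adjusted p = 0.909).

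Among 9 signal transducers of the family described here, 1 fell and 8 did not pass. Of all genes tested, 13.3% were called, so this count is near that share. Gab2, a docking protein, fell by 1.23 on the log2 scale (edgeR adjusted p = 0.000282). Jak3, the kinase bound to Il2rg, had 221 ± 56.8 and 234 ± 53.0 CPM (edgeR adjusted p = 0.843), and Jak1 had a log2 fold change of -0.10 (edgeR adjusted p = 0.781). Stat5a and Stat5b had log2 fold changes of -0.09 and -0.41 (edgeR adjusted p of 0.822 and 0.184), and Stat5b passed downward by limma-voom with quality weights (adjusted p = 0.0416). Stat3 had -0.05 and Stat6 0.12. Those of Jak1, Stat3 and Stat5a turned positive with scaling by library size.

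Of 6 feedback inhibitors, 1 rose, where 13.3% of all genes tested were called. Socs1, which STATs induce and which blocks JAK kinases, went from 89.2 to 159 CPM in control to 169 to 241 CPM in oxPAPC libraries (edgeR adjusted p = 0.0346). This call was lost without control replicate 1 or 3 (edgeR adjusted p of 0.0924 and 0.0676), without oxPAPC replicate 1, 2 or 3 (0.0829, 0.0580 and 0.0651) and with the replicate block (0.0908). Cish, a STAT5 target that restrains the pathway, had 243 ± 11.5 and 331 ± 11.8 CPM without overlap and just missed the threshold (edgeR adjusted p = 0.0527). Cish passed with DESeq2 (adjusted p = 0.000358), RLE scaling (0.0471), limma-voom without and with quality weights (0.0430 and 0.0226), the Gm26917 covariate (0.0414) and without oxPAPC replicate 3 (0.0489). Socs2 and Socs3 had log2 fold changes of 0.19 and 0.38 and did not pass.

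**Figure D5:**
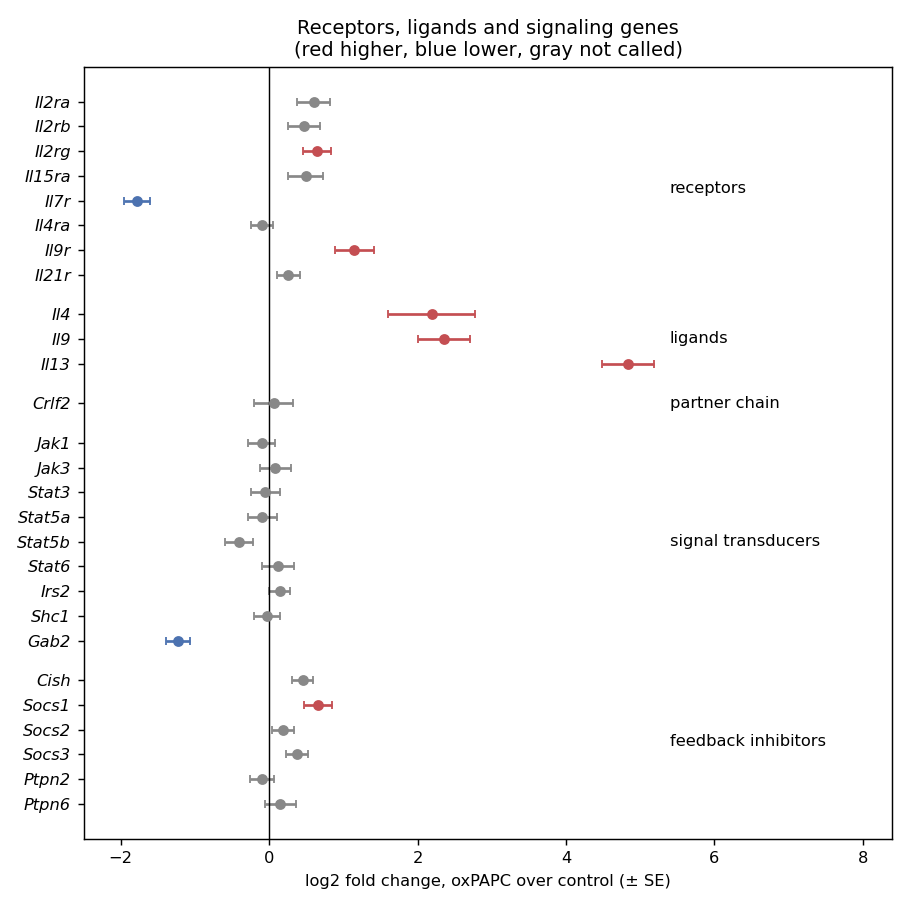
Log2 fold change of oxPAPC over control (horizontal axis, points with SE bars) for the receptors, ligands, the partner chain Crlf2, and the signal transducers and feedback inhibitors described here. Il7r and Gab2 fell, while Il2rg, Il9r, the 3 ligands and Socs1 rose.

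Of 19 tested genes that interleukin 2 and STAT5 are known to induce, 11 rose, 1 fell and 7 did not pass, with a median log2 fold change of 0.69. Of all genes tested, 6.75% rose and 6.52% fell. This and the other gene lists were chosen with earlier results of these data known, so such counts are descriptions only. Lif, a cytokine, rose from 47.0 ± 9.42 to 238 ± 24.1 CPM, and Pim1, a survival kinase, from 140 ± 23.8 to 285 ± 29.1 CPM (SD, n = 4 each). Gzmb, Lta and Il1rl1 rose with log2 fold changes of 1.48, 1.76 and 1.44. The gene of this list that fell was Bcl2, an inhibitor of cell death that interleukin 7 also induces. Its call was lost without control replicate 1 or 2 (edgeR adjusted p of 0.0533 and 0.0643), without oxPAPC replicate 1 or 4 (0.0690 and 0.0805), with the replicate block (0.0524) and with scaling by library size (0.207).

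Of 16 genes of naive and memory T cells, the populations that carry Il7r, 8 fell, none rose and 8 did not pass, with a median log2 fold change of -0.49. Of all genes tested, 6.52% fell, and this list too was chosen with earlier results known. Nsg2 fell from 90.3 ± 7.78 to 44.6 ± 5.94 CPM, and Klf3, a quiescence factor, from 44.2 ± 5.91 to 22.6 ± 2.33 CPM (SD, n = 4 each). Id3, Txk and Klf2 fell by 0.75, 0.62 and 0.86 on the log2 scale. The call of Klf2 was lost without control replicate 2 (edgeR adjusted p = 0.0579), without oxPAPC replicate 1 or 4 (0.0525 and 0.0551) and with the replicate block (0.0563). That of Txk was lost with scaling by library size (0.147) and with the block (0.0523).

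Of 12 known regulators of Il7r, 1 rose, 2 fell and 9 did not pass, where 6.75% of all genes tested rose and 6.52% fell. Tbx21, the Th1 factor T-bet, rose by 2.31 on the log2 scale (edgeR adjusted p = 1.98e-05). Foxo3, of the FoxO family that activates Il7r, fell from 117 ± 23.3 to 72.1 ± 11.4 CPM (SD, n = 4 each, edgeR adjusted p = 0.0143). Its call was lost without control replicate 2 (0.0522), oxPAPC replicate 1 (0.0507) or 4 (0.0527) and with scaling by library size (0.0856). Nr3c1, the glucocorticoid receptor, fell from 63.9 ± 6.38 to 47.6 ± 3.06 CPM (SD, n = 4 each, edgeR adjusted p = 0.0419), and leaving out any library ended its call (0.0615 to 0.0971), as did the replicate block (0.103), no filter on low counts (0.0528) and scaling by RLE (0.0522) or library size (0.351). Gfi1, a repressor of Il7r, had 51.1 ± 13.3 and 35.1 ± 3.72 CPM (edgeR adjusted p = 0.0577), and passed downward without control replicate 3 (0.0130) and with quality weights (0.0179). Of 11 known regulators of Il2ra, only Smad3 was called, lower (edgeR adjusted p = 0.0420), where 13.3% of all genes tested were called. Leaving out any library but control replicate 3 or oxPAPC replicate 3 ended the call of Smad3 (0.0577 to 0.137). So did the replicate block (0.0663), no filter on low counts (0.0562) and scaling by RLE (0.0567) or library size (0.347).

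Receptors of other cytokine families, a list also chosen with earlier results known, were set beside the members. Of 26 tested, 4 rose (Il1r2, Il1rl1, Il12rb1 and Csf2rb) and 5 fell (Il6st, Il11ra1, Ifngr1, Ifngr2 and Ifnar2), with a median log2 fold change of -0.04. Of all genes tested, 13.3% were called. Il1rl1 and Csf2rb needed their oxPAPC libraries to pass the filter on low counts, which favors a rise. Il12rb1, a chain of the interleukin 12 receptor, rose from 31.8 ± 7.08 to 71.0 ± 17.7 CPM, and Il6st, the shared chain of the interleukin 6 family, fell from 137 ± 15.8 to 82.8 ± 4.11 CPM (SD, n = 4 each). Csf2rb rose with a log2 fold change of 2.33 from a low level, 0.376 CPM, and by 3.40 without control replicate 4. Ifngr2 and Il11ra1 fell by 0.67 and 1.06 on the log2 scale. The calls of Il6st and Ifngr2 were lost with scaling by library size (edgeR adjusted p of 0.0615 and 0.0739). Those of Il1r2, Ifngr1 and Ifnar2 were lost with the replicate block (0.0505, 0.0683 and 0.0744). Leaving out control replicate 1, 2 or 4 or oxPAPC replicate 4 ended the call of Il1r2 (0.0609 to 0.0724). Control replicate 2 or 4 or oxPAPC replicate 1, 2 or 4 did so for Ifngr1 (0.0744 to 0.0896), and control replicate 1, 2 or 4 or oxPAPC replicate 2 or 4 for Ifnar2 (0.0586 to 0.103). Scaling by library size ended the calls of Ifngr1 (0.305) and Ifnar2 (0.110).

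Genes with the most alike pattern were ranked by the root mean square difference between centred log2 CPM profiles over the 8 libraries. For Il7r, out of 9427 genes, these were Arhgap20 (0.176), Maml3 (0.216) and Cox6b2 (0.235), against a median of 0.933. For Il9r, out of 9428 genes, they were Tigar (0.140), Myo19 (0.145) and Rrp15 (0.146). For Il2rg they were Shisa5 (0.0630), Ahsa1 (0.0899) and Pum3 (0.0914), and for Il2ra Prep (0.0801), Parp3 (0.0956) and Dclre1b (0.0957). Among the members, Il2ra was nearest to Il2rg (0.133) and farthest from Il7r (1.19).

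Some markers of other cell types also moved with oxPAPC, and their part in the receptor results was not tested. Of 7 B cell markers tested and described here 3 rose (Ms4a1, Pax5 and Blk), and their list summed to 13.8 to 19.0 CPM in control and 18.6 to 23.5 CPM in oxPAPC libraries, with overlap. The call of Ms4a1 was lost without control replicate 2 (edgeR adjusted p = 0.0519) or oxPAPC replicate 1 (0.0503), and that of Blk with the replicate block (0.0547). The macrophage list summed to 3.77 to 4.80 and 9.09 to 11.3 CPM, the dendritic cell list to 6.19 to 10.8 and 12.5 to 15.3 CPM, and the CD8 T cell list to 6.72 to 8.90 and 10.9 to 18.7 CPM. Single genes weighed on these sums. Mpeg1 held means of 0.203 and 4.02 CPM out of 4.37 and 10.1 for the macrophage list. Cd8a held 2.17 and 6.81 out of 8.13 and 13.1 for the CD8 list. Flt3 held less, 0.184 and 1.06 out of 9.34 and 13.6 for the dendritic cell list. Of the genes tested, 1 of 4 macrophage genes (Mpeg1), 1 of 3 dendritic cell genes (Flt3) and 1 of 2 CD8 T cell genes (Cd8a) rose. Of all genes tested, 6.75% rose. Mpeg1 and Flt3 reached at most 0.377 and 0.302 CPM in control libraries. Mpeg1, Flt3, Ms4a1, Pax5 and Blk needed their oxPAPC libraries to pass the filter on low counts, which favors a rise. Their counts are therefore descriptions only. The other CD8 gene, Cd8b1, had 5.96 ± 0.846 and 6.33 ± 1.91 CPM (SD, n = 4 each, edgeR adjusted p = 0.84). The B cell gene Cd79a had 4.03 and 4.23 CPM (edgeR adjusted p = 0.902), and the natural killer cell list summed to 0.690 to 1.74 and 0.355 to 1.59 CPM. Kit, the only mast cell and basophil gene measured, fell, from 18.4 to 27.3 CPM in control to 11.2 to 15.9 CPM in oxPAPC libraries, a call lost without control replicate 4 (edgeR adjusted p = 0.0510) or oxPAPC replicate 1 (0.0529) and with scaling by library size (0.120). The defining genes Ncr1, Klrb1c, Klre1, Cd14, Itgam, Fcgr1, Siglech, Clec9a, Cpa3, Fcer1a, Mcpt8 and Gata2 were not analysed here. Of 4 genes followed as signs of RNA quality, 1 was called, Neat1, which fell. The 6 T cell markers, by comparison, summed to 1538.8 to 1774.8 CPM in control and 1375.6 to 1632.8 CPM in oxPAPC libraries, and none of them or of the 6 Treg markers was called.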

How the data were processed

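Poly(A)-selected RNA-seq libraries, 4 control and 4 oxPAPC, were grouped by their titles. Per the submitters' processing notes, STAR 2.7.8a, featureCounts 2.0.2, DESeq2 1.30.1 and build GRCm38.p6 were used; strand settings are not given in the sources used here. The authors deposited whole-number counts per gene, not normalized, with their own log2 fold changes and p-values, per the file headers. All genes listed reach 5 counts in 2 or more libraries.

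Counts were scaled by TMM, filtered with filterByExpr (16434 genes) and tested with edgeR 4.0.16 in R 4.3.3 (quasi-likelihood, Benjamini-Hochberg, threshold 0.05), after a check of the test on simulated data. The common biological coefficient of variation was 0.207. Log2 CPM for pattern likeness used a prior count of 2. Exon lengths and overlaps came from GENCODE M21.

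The members and gene lists were chosen with earlier results of these data known; some listed genes are not reported here and are left out of list counts and sums. Named genes were the members, the ligands, partners, transducers and inhibitors, up to 5 genes of each other list by adjusted p, Foxp3, and the 3 genes most alike in pattern (mean of at least 5 CPM) to each called member and Il2ra. Bcl2, Il1r2, Ifngr1, Ifnar2, Neat1, the markers and Gm37881 were chosen after their values were seen. Alternatives were RLE and library size scaling, no filter, DESeq2 1.42.0, limma-voom 3.58.1 without and with quality weights, the replicate block, the removal of Gm26917 and Rn7sk and leaving out each library. The Gm26917 covariate was added after the data were seen. With 4 libraries in each group, same-numbered libraries were not taken as pairs.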

Additional observations from a re-analysis of the deposited data

Results flagged for a closer look

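For each named gene, both groups were searched for a library standing far off from the remaining 3. Of 164 such searches 6 found one, where about 8 (1 in 20) would by chance. Il7r had 122 CPM in control replicate 3, against 78.5 to 84.8 CPM in the other control libraries; without that library its log2 fold change was -1.62. Gm37881, which lies within an intron of Il2ra, had 16.5 CPM in control replicate 3, against 12.3 to 12.7 CPM. Jak3 had 313 CPM and Stat5a 295 CPM in oxPAPC replicate 3, against 201 to 216 and 187 to 205 CPM in the other oxPAPC libraries; the same library was highest for Il2ra, Il2rb, Il2rg and Il21r. Flt3 had 1.39 CPM in oxPAPC replicate 2, against 0.913 to 0.971 CPM. Il21 had 0.0457 CPM, a single count, in control replicate 3 and 0 in the other control libraries.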

How the results depend on the processing

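Il7r and Il9r kept their direction and their call under all 17 alternatives. Of 73 other named genes tested, 44 were called, of which 26 kept direction and call under every alternative and none turned; of the 29 not called, 12 changed sign under some. Il2rg kept its direction, with log2 fold changes of 0.596 by limma-voom and 0.481 with the Gm26917 covariate, where it was not called, and 0.453 to 0.773 with a library left out. Il2ra passed only by DESeq2 (0.627) and with quality weights (0.583). It was 0.41 with the Gm26917 covariate and ranged from 0.48 to 0.729 with a library left out, not called in any of these fits. All genes called were 1453 with the replicate block (708 lower), which called the same number of members, 3, and 1390 to 2134 with a library left out (710 to 1057 higher, 680 to 1144 lower; fewest without control replicate 2); these fits have fewer samples. Scaling by library size called 458 lower genes; the cause was not tested. Same-numbered libraries deviated with correlations of 0.321, -0.0528, -0.368 and -0.0354, and for 2 of 8 libraries the closest partner bore the same number, so they were not taken as paired.

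Log2 fold changes that changed sign, in genes not called, were as follows. With library size scaling: Il4ra 0.051, Jak1 0.040, Stat3 0.097, Stat5a 0.066, Shc1 0.118, Ptpn2 0.009 and Foxp3 0.052. With quality weights: Crlf2 -0.114, Jak3 -0.062 and Stat6 -0.043. With the covariate: Stat6 -0.015, Ptpn6 -0.039, Cd8b1 -0.038 and Cd79a -0.063. With a library left out the ranges were Crlf2 -0.150 to 0.259, Jak1 -0.260 to 0.006, Jak3 -0.090 to 0.195, Stat3 -0.236 to 0.038, Stat5a -0.258 to 0.017, Stat6 -0.086 to 0.251, Shc1 -0.191 to 0.061, Ptpn2 -0.215 to 0.010, Ptpn6 -0.020 to 0.288, Foxp3 -0.326 to 0.089, Cd8b1 -0.110 to 0.219 and Cd79a -0.090 to 0.266.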

Other observations

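Gm37881, a transcript of uncertain coding status annotated within an intron of Il2ra on the same strand, gives values from bases that the exons of Il2ra do not hold. It had 12.7, 12.5, 16.5 and 12.3 CPM in the control replicates and 18.4, 23.2, 13.9 and 19.1 CPM in the oxPAPC replicates. Its log2 fold change was 0.46 ± 0.17 (SE, edgeR adjusted p = 0.0996), beside 0.60 for Il2ra; it passed without control replicate 3 (0.0461), without oxPAPC replicate 3 (0.0329) and by limma-voom with quality weights (0.0241). OxPAPC replicate 3, which has the highest Il2ra level, has the lowest Gm37881 level of the oxPAPC libraries.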
